A study of Mus musculus with 4 samples.

Results

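Transcripts of 9 interferon response genes, Stat2, Irf9, Irf7, Oasl2, Ifit1, Ifit3, Bst2, Isg15 and Usp18, were followed in pancreatic β cells of mouse neonates with and without intact Roundabout receptor genes. They were taken by symbol from a table of 51912 genes, and each of the 9 symbols matched 1 row. The libraries were made from islet cells at day 13 after birth, sorted for mCherry, a nuclear reporter under Cre control (Rosa26-lsl-H2B-mCherry), in mice heterozygous for the reporter and for Ucn3-Cre. Ucn3 is a gene of maturing β cells, and both genotypes carry these alleles. The 2 control libraries have wild-type Robo1 and Robo2. The 2 Robo mutant libraries are homozygous for a Robo1 deletion allele, which does not depend on Cre, and for a conditional Robo2 allele (Robo2flx/flx), which does. The labels do not say whether libraries came from separate animals or pools, so a p-value here reflects differences among the 4 libraries that may be technical rather than between animals.

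Interferons are secreted signals of infected or alarmed cells. A type I interferon binds the receptor chains Ifnar1 and Ifnar2, whose kinases Tyk2 and Jak1 phosphorylate signal transducers such as Stat2. Stat2 and Irf9 are subunits of the complex ISGF3, which binds the interferon-stimulated response element in front of antiviral genes. Stat2, Irf9 and Irf7 belong to this signalling layer, Oasl2, Ifit1, Ifit3, Bst2 and Isg15 are among the induced products, and Usp18 closes the loop as a negative regulator. Stressed islet cells, β cells included, can express these genes.

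Totals ran from 38886129 to 49593712 estimated counts per library, and genes with at least 1 count numbered 19919 and 20918 in the controls and 17751 and 17937 in the mutants. The targeted genes were lower in both mutant libraries, Robo1 at 48.5 and 104 CPM (counts scaled to a common library size) in control against 22.3 and 21.0 in mutant, and Robo2 at 75.2 and 118 against 32.7 and 25.6. Such gene-level values also count reads from exons that a deletion leaves in place. The 5 sex-linked markers, led by Ddx3y, summed to 199 and 203 CPM in the controls, 134 CPM in mutant 1 and 197 CPM in mutant 2. Of these Xist had 0 counts in both mutant libraries and was above 0 in both controls, and the others were above 0 in every library. Xist was not among the 4 sex-linked markers tested, whose log2 changes ran from -1.04 to 0.83. DESeq2 called 1 of these 4, and the part of sex in the genotype contrast was not tested. All 9 β-cell markers looked for were present in every library, with Ins2 between 99690 and 153067 CPM, while the glucagon gene Gcg stood between 11445 and 23483 CPM. The 14 acinar markers, led by Cel, summed to 5777 and 822 CPM in control 1 and control 2 and to 3537 and 56088 CPM in mutant 1 and mutant 2. The 8 stromal markers, led by Col3a1, summed to 2271, 675, 934 and 12.9 CPM in the same order, with Col1a1, Pdgfra, Pdgfrb and Rgs5 at 0 in mutant 2. The 17 leukocyte markers, led by C1qa, summed to 78.8, 41.2, 95.2 and 108 CPM, and 14 of the 15 tested had a log2 change above 0. Ptprc, the pan-leukocyte antigen gene, stood at 5.16, 0.589, 7.16 and 8.92 CPM, whereas Nkg7 had 0 counts in all 4 libraries. DESeq2 called 1 of the 15, Itgam (adjusted p = 0.00163), named after its values were seen, and edgeR did not (adjusted p = 0.680). Itgam had 0 counts in both controls and 170 and 81 in mutant 1 and mutant 2, so it passed the filter on low counts through the mutants alone.

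The interferon response genes did not move together with the Robo genotype, and the mutant libraries often lay on opposite sides of the controls. Stat2 and Oasl2 lay below both controls in each mutant library, and Ifit3 above both. Irf9, Irf7, Ifit1 and Usp18 lay below both controls in mutant 1 and above both in mutant 2. Bst2 overlapped between genotypes, and Isg15 had too few counts to be tested.

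By edgeR's quasi-likelihood test 0 of the 8 tested members had an adjusted p under 0.05, against 0 of 16517 tested genes (0%), and the smallest adjusted p of a member was 0.922. At an unadjusted p under 0.05 there were 0 members against 1025 genes (6.21%). DESeq2 called 151 genes (0.914%) and 0 members, the smallest adjusted p of a member being 0.897, and 0 members had an unadjusted p under 0.05 there. For 2 members both mutants lay below both controls, against 20.4% of all tested genes, and for 1 member above both, against 16.1%. The mutant libraries lay on opposite sides of both controls in 4 members against 25.9% of tested genes. In all 4 the order was mutant 1 below and mutant 2 above, an order that 12.8% of tested genes had. The median log2 change of the tested members was 0.12, and that of all tested genes was -0.013. The median went to -0.62 without Robo mutant 2 and to 0.57 without Robo mutant 1. The distance between the mutant libraries, as a median over genes on the log2(CPM + 1) scale, was 1.27 for the tested members and 0.37 for all tested genes. Between the control libraries it was 0.31 and 0.22. The mutant libraries were further apart than the controls in 6 of the 8 members and in 65.4% of tested genes.

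**Figure D1:**
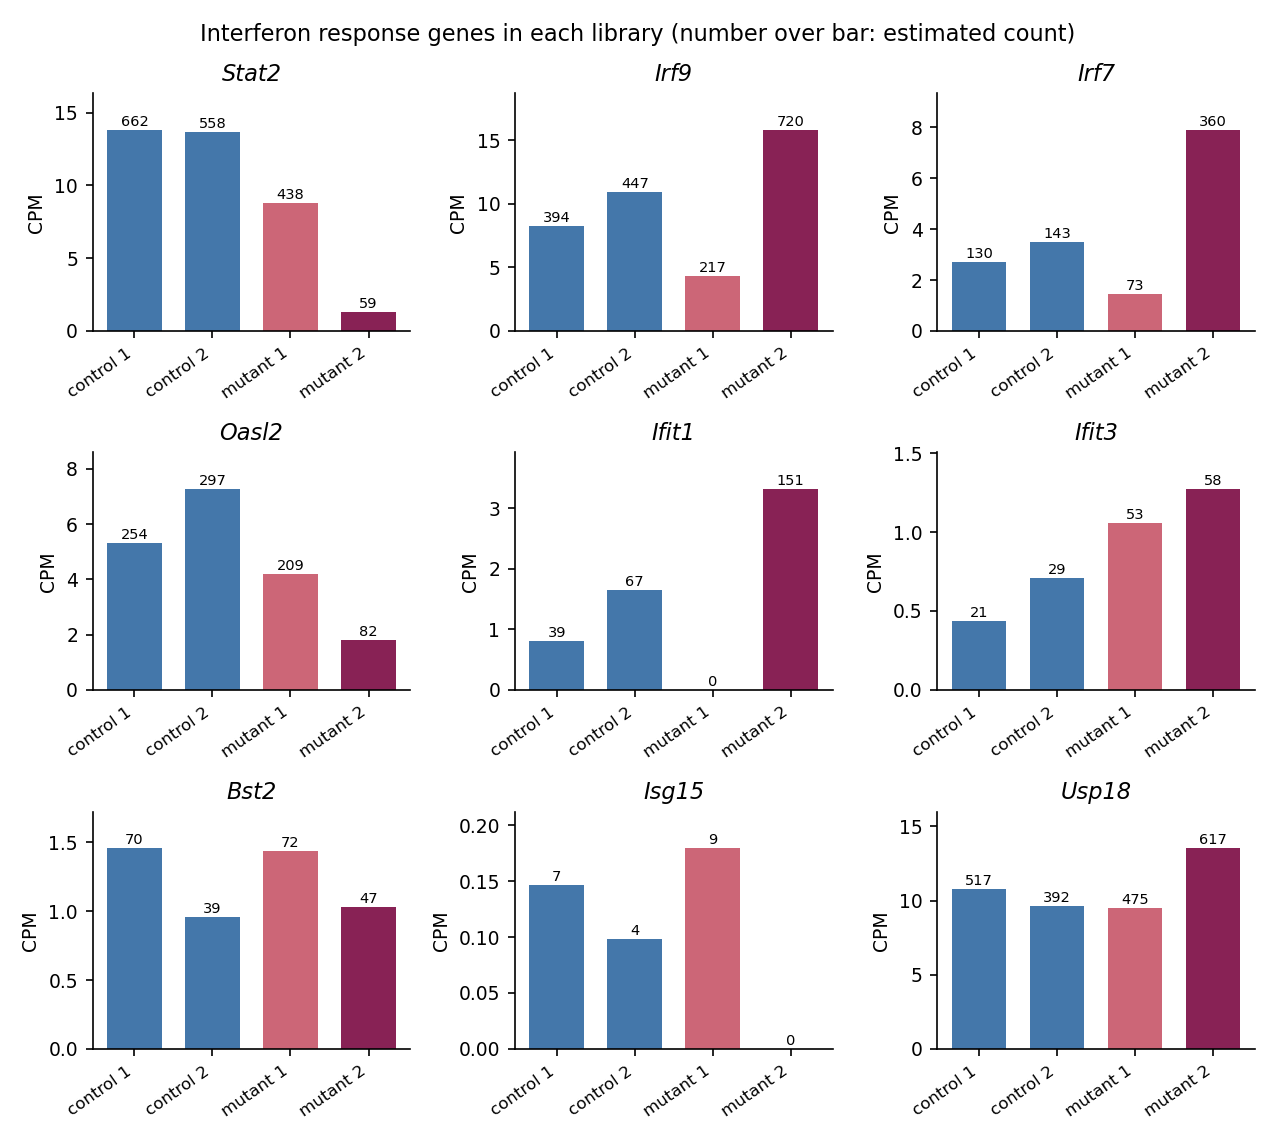
Bars give the TMM-scaled CPM of each member in control 1, control 2, mutant 1 and mutant 2, each panel with its own linear axis from 0, and the number over a bar is the estimated count. Stat2 and Oasl2 are lowest in mutant 2, while Irf9, Irf7 and Ifit1 are lowest in mutant 1 and highest in mutant 2.

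The element that ISGF3 binds was looked for in front of the members. Its core was searched as GAAANNGAAA, with TTTCNNTTTC for the other strand, in RefSeq promoter windows of 250 bases before to 50 after each start site (GRCm38.p6). Of the 9 members 8 have a window, Usp18 being the other, and 5 of these 8 hold a match, against 1131 of 32851 windows (3.44%). Windows of Oasl2, Irf7 and Irf9 held no match to these letters. The matches are shown in capitals, on the strand of each gene, because Ifit1 and Ifit3 carry the same 2 cores and yet differed in their counts below:
Ifit1 (chr19:34640770-34640828, plus strand): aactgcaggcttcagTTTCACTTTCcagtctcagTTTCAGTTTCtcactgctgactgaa
Ifit3 (chr19:34583358-34583431, plus strand): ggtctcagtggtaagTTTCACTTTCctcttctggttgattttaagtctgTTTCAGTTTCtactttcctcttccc
Isg15 (chr4:156200860-156200911, minus strand): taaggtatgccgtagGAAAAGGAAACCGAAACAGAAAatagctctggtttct
Bst2 (chr8:71537572-71537617, minus strand): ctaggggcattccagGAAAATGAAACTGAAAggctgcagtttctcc
Stat2 (chr10:128270261-128270300, plus strand): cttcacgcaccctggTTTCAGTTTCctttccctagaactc

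The 3 matches of Isg15 overlap each other and begin between 78 and 66 bases before the start site, and the 2 of Bst2 overlap and begin at 130 and 124. Those of Ifit1 begin at 104 and 85, those of Ifit3 at 156 and 122, and that of Stat2 at 222. Across the table, 413 tested genes with a match had a median log2 change of -0.019, and 10949 tested genes with a window but no match also had -0.019. DESeq2 called 8 of the former (1.94%) and 93 of the latter (0.849%). A match describes the sequence and shows no binding.

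Stat2 encodes the signal transducer that carries the transactivation domain of ISGF3 (ENSMUSG00000040033, chromosome 10, 128270559 to 128292849, plus strand, GRCm38). It had 662 and 558 counts in control 1 and control 2, 438 in mutant 1 and 59 in mutant 2, or 13.8, 13.7, 8.76 and 1.297 CPM. The controls were nearly equal, both mutants lay below them, and mutant 2 was far below mutant 1. The genotype means were 13.8 ± 0.0973 and 5.03 ± 5.28 CPM (SD, n = 2 each), 2.74-fold lower in the mutant. The log2 change was -1.45 with a 95% interval from -3.90 to 1.00 (edgeR's quasi-likelihood test, adjusted p = 0.941). It was -0.65 without Robo mutant 2 and -3.40 without Robo mutant 1, and neither passed the test. The exact 95% Poisson intervals of the counts in mutant 1 (398 to 481) and mutant 2 (44.9 to 76.1) do not overlap, and these cover counting error only.

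Irf9 encodes the DNA-binding subunit of ISGF3 (ENSMUSG00000002325, chromosome 14, 55603571 to 55610030, plus strand). It had 394 and 447 counts in control, 217 in mutant 1 and 720 in mutant 2, or 8.23, 11.0, 4.34 and 15.8 CPM. The controls lay between the mutant libraries, of which mutant 2 was 3.65-fold above mutant 1. The means were 9.59 ± 1.93 and 10.1 ± 8.12 CPM (SD, n = 2 each), and the log2 change was 0.071 (95% interval -1.74 to 1.89, edgeR, adjusted p = 1.00). Its direction depended on the scaling, with -0.016 when libraries were scaled by their totals only, and it was -1.14 without Robo mutant 2. The ratio of Stat2 to Irf9, in CPM per kb of annotated exon, was 1.53 and 1.13 in the controls, and 1.83 and 0.0745 in mutant 1 and mutant 2. These genes of the same complex thus stood at opposite ends of the range in mutant 2. The first 123 bases of Irf9 overlap Rnf31 on the same strand.

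Irf7 encodes the factor that amplifies the type I interferon response once induced (ENSMUSG00000025498, chromosome 7, 141262706 to 141266481, minus strand). It had 130 and 143 counts in control, 73 in mutant 1 and 360 in mutant 2, or 2.71, 3.51, 1.46 and 7.91 CPM. Mutant 1 was below both controls and mutant 2, 5.42-fold above mutant 1, was above both. Its last 45 bases overlap Phrf1 on the other strand. The means were 3.11 ± 0.561 and 4.69 ± 4.56 CPM (SD, n = 2 each), with a log2 change of 0.59 (95% interval -1.86 to 3.04, edgeR, adjusted p = 1.00). Without Robo mutant 2 it was -1.09, and without Robo mutant 1 it was 1.35. Plasmacytoid dendritic cells are known for a constant high level of Irf7. Their marker Siglech had 97 counts in mutant 2, 2 in control 2 and 0 in the other libraries, while the markers Ccr9 and Ly6c2 had 0 counts in both mutant libraries. The 6 markers of that list summed to 90.3 and 51.4 CPM in the controls, 56.6 CPM in mutant 1 and 365 CPM in mutant 2, of which the kallikrein gene Klk1, also known from exocrine glands, made 40.4, 5.27, 15.5 and 313 CPM. The part of these cells, or of acinar RNA, in the result was not tested. In bulk libraries fewer cells of a type and less RNA per cell cannot be told apart.

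Among the induced effectors, Oasl2 encodes an oligoadenylate synthetase-like protein of the antiviral response (ENSMUSG00000029561, chromosome 5, 114896936 to 114912234, plus strand). It had 254 and 297 counts in control, 209 in mutant 1 and 82 in mutant 2, or 5.30, 7.28, 4.18 and 1.80 CPM. Both mutants lay below both controls, as for Stat2, and mutant 2 was again the lowest. The means were 6.29 ± 1.40 and 2.99 ± 1.68 CPM (SD, n = 2 each), 2.10-fold lower in the mutant. The log2 change was -1.07 (95% interval -2.71 to 0.57, edgeR, adjusted p = 0.922), with -0.59 without Robo mutant 2 and -1.80 without Robo mutant 1. Stat2 and Oasl2 were the only members below both controls in both mutant libraries.

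Ifit1 encodes a protein that binds viral RNA lacking a self-type cap (ENSMUSG00000034459, chromosome 19, 34640871 to 34650009, plus strand). It had 39 and 67 counts in control, 0 in mutant 1 and 151 in mutant 2, or 0.814, 1.64, 0 and 3.32 CPM. A count of 0 allows up to 3 counts, or 0.0600 CPM, in mutant 1, a bound that covers counting error only. On that bound mutant 2 was at least 55.3-fold higher than mutant 1. Zeros were common in mutant 1, at 18.8% of all genes with 10 to 200 counts in both controls. The log2 change of the means of Ifit1 was 0.43 with a 95% interval from -5.62 to 6.49 (edgeR, adjusted p = 1.00). This is the widest interval of the 8, and without Robo mutant 2 the direction reversed, to a fitted value that rests on the 0 and is no bound.

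Ifit3, a partner of Ifit1 in the same protein complex (ENSMUSG00000074896, chromosome 19, 34583531 to 34588731, plus strand), had 21 and 29 counts in control, 53 in mutant 1 and 58 in mutant 2. These correspond to 0.438, 0.711, 1.06 and 1.27 CPM, both mutants above both controls. The means were 0.575 ± 0.193 and 1.17 ± 0.152 CPM (SD, n = 2 each), 2.03-fold higher in the mutant, with a log2 change of 1.02 (95% interval -1.41 to 3.45, edgeR, adjusted p = 0.991). The value is uncertain because of a near-identical copy. Ifit3b shares 97.8% identity with the Ifit3 transcript over 97.4% of its length, so reads can be divided between them. For Ifit3b the counts were 27 and 49 in control, and both mutants were at 0. Summed, the copies had 48 and 78 counts in control and 53 and 58 in mutant, or 1.00, 1.91, 1.06 and 1.27 CPM, and the genotypes overlapped. The log2 change of the sum was -0.32 (edgeR, adjusted p = 1.00), opposite in sign to that of Ifit3 alone.

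**Figure D2:**
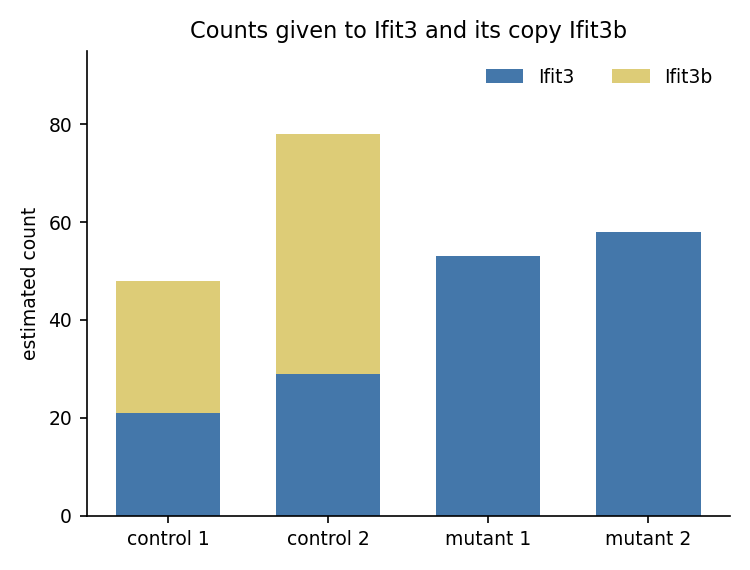
Stacked bars give the estimated counts assigned to Ifit3 and to its near-identical copy Ifit3b in each library, on a linear axis from 0. The controls divide 48 and 78 counts between the copies, whereas in the mutants all 53 and 58 counts are assigned to Ifit3.

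Bst2 encodes tetherin, which holds budding virus at the cell surface (ENSMUSG00000046718, chromosome 8, 71534255 to 71537456, minus strand). It had 70 and 39 counts in control, 72 in mutant 1 and 47 in mutant 2, or 1.46, 0.957, 1.44 and 1.03 CPM. The genotypes overlapped, with means of 1.21 ± 0.357 and 1.24 ± 0.287 CPM (SD, n = 2 each). The log2 change was 0.032 (95% interval -2.16 to 2.22, edgeR, adjusted p = 1.00), and -0.012 with libraries scaled by their totals only. The interval leaves room for a change in either direction.

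Isg15 encodes a ubiquitin-like protein that is joined to other proteins during the response (ENSMUSG00000035692, chromosome 4, 156199424 to 156200818, minus strand). It had 7 and 4 counts in control, 9 in mutant 1 and 0 in mutant 2, where up to 3 counts (0.0659 CPM) are allowed. With so few counts it failed the filter on low values, and a difference was not detectable at this depth (log2 change without a filter -0.43, edgeR, adjusted p = 0.992). A gene annotated as AC151275.1, which shares 95.2% identity with 63.8% of its transcript, could also take reads, and its counts were not analysed here.

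Usp18 encodes the protease that removes Isg15 from proteins and also restrains the type I receptor (ENSMUSG00000030107, chromosome 6, 121245906 to 121270917, plus strand). It had 517 and 392 counts in control, 475 in mutant 1 and 617 in mutant 2, or 10.8, 9.61, 9.50 and 13.6 CPM. Mutant 1 was just below both controls and mutant 2 above both. The means were 10.2 ± 0.835 and 11.5 ± 2.87 CPM (SD, n = 2 each). The log2 change was 0.18 (95% interval -0.69 to 1.04, edgeR, adjusted p = 1.00), the narrowest interval of the members. Gm44148, a long noncoding RNA gene with 141 counts in all libraries together, overlaps Usp18 on the other strand, and these libraries do not tell strands apart.

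**Figure D3:**
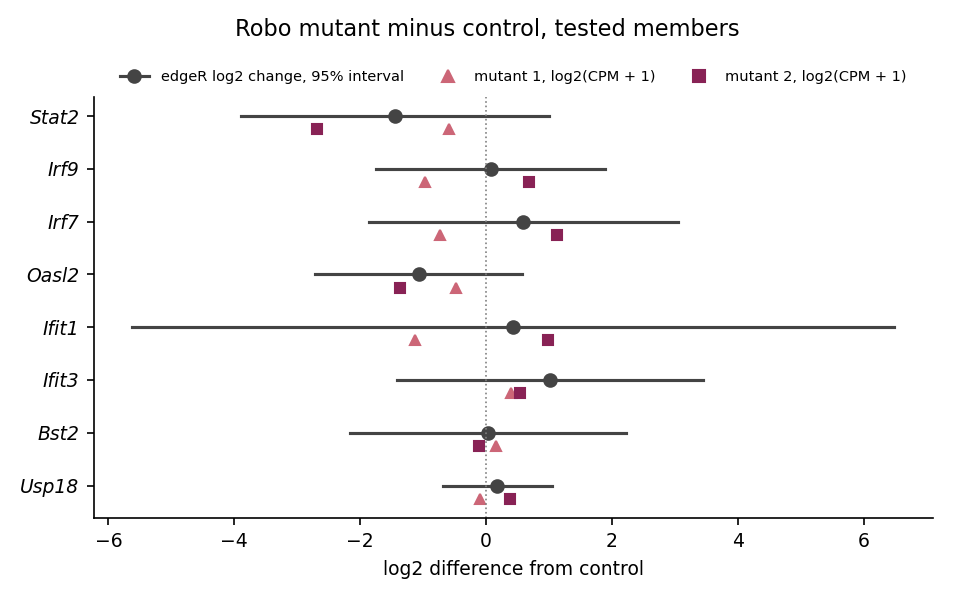
Circles and lines give the log2 change of the 8 tested members from edgeR with its 95% interval, and the triangle and square give mutant 1 and mutant 2 minus the control mean on the log2(CPM + 1) scale. Every interval includes 0, and for Irf9, Irf7, Ifit1 and Usp18 the triangle lies to the left and the square to the right of 0.

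Levels can be compared between genes only per length, here as CPM per kb of annotated exon. In control 1 and control 2 Usp18 was highest at 3.87 and 3.45, followed without overlap by Stat2 at 2.33 and 2.31. Irf9 (1.53 and 2.04) and Bst2 (1.62 and 1.06) overlapped each other, as did Bst2 and Oasl2 (0.832 and 1.14), and Oasl2 and Irf7 (0.719 and 0.929). Ifit1 (0.307 and 0.619) and Ifit3 (0.251 and 0.408) also overlapped, and Isg15 was lowest at 0.193 and 0.130. In mutant 1 Usp18 (3.40), Bst2 (1.59) and Stat2 (1.48) were highest, and Irf9 was at 0.806. In mutant 2 Usp18 (4.86) was followed by Irf9 (2.94), Irf7 (2.10) and Ifit1 (1.25), while Oasl2 (0.283) and Stat2 (0.219) were above Isg15 only. The 9 genes together made 43.7 and 48.5 CPM in the controls, 30.9 CPM in mutant 1 and 46.0 CPM in mutant 2.

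The ligands were nearly absent at this depth. Of 20 genes of type I and type III interferons, 19 had 0 counts in all 4 libraries, which allows up to 3 counts each per library, and Ifna13 had 1 count in control 2. Ifng, the type II interferon of T and natural killer cells, had 98 counts in mutant 1 (1.96 CPM) and 0 in the other libraries.

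All 6 receptor chains were expressed, and 5 of them were above both controls in each mutant library, as were 16.1% of tested genes. Ifnar2, Il10rb, Ifnar1 and Ifngr2, named here for their position, lie between 91372783 and 91565623 on chromosome 16, which also carries Robo1 and Robo2. Ifngr2 was the chain that overlapped between genotypes. Ifngr1 lies on chromosome 10 and Ifnlr1 on chromosome 4. The 6 are therefore not all unlinked genes. For the chains on chromosome 16 the part of linkage to the Robo alleles was not tested. The median log2 change of the 6 was 0.42, beside -0.013 over all tested genes, and 0 of them passed the test. Ifngr1, the ligand-binding chain for type II interferon, stood at 25.5 and 29.9 CPM in control and 44.7 and 34.2 CPM in mutant (log2 change 0.51, edgeR, adjusted p = 0.863). Ifnar1, the most abundant, was at 44.2 and 44.0 against 63.2 and 47.5 CPM (0.33), and its partner Ifnar2 at 24.7 and 17.3 against 38.7 and 25.6 CPM (0.61). Ifnlr1, the type III receptor chain, was at 0.564 and 0.687 against 2.32 and 1.91 CPM (1.75). For Ifngr1, Ifnar1, Ifnar2 and Ifnlr1 mutant 1 was the highest library.

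Of the 10 receptor kinases and Stat or Irf factors other than the members, 3 had a log2 change above 0 and 7 below, and 0 passed. Irf1, a factor downstream of type II interferon, was at 207 and 67.5 CPM in control and 207 and 379 CPM in mutant, with control 2 the lowest and mutant 2 the highest library (log2 change 1.10, edgeR, adjusted p = 0.922). Tyk2, a receptor kinase, was at 20.5 and 19.7 against 12.6 and 19.3 CPM, with mutant 1 lowest (-0.34). Stat3 was the most abundant, at 263 to 341 CPM.

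Of the 15 tested nucleic acid sensors and adaptors 10 had a log2 change above 0 and 5 below, with 0 passing the test and 2 at an unadjusted p under 0.05, both lower. Tbk1, the kinase that activates Irf3, was at 43.8 and 40.0 CPM in control and 27.2 and 29.6 CPM in mutant (log2 change -0.56, edgeR, adjusted p = 0.680). Tmem173, the gene of the adaptor STING, was at 1.02 and 0.441 CPM against 0 and 0.0440 CPM (adjusted p = 0.797). Zbp1, a nucleic acid sensor that triggers cell death, was at 0 and 0.0981 CPM against 1.90 and 0.747 CPM (adjusted p = 0.854).

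Of the 25 tested antiviral effectors other than the members 11 had a log2 change above 0 and 14 below, and 0 passed. The mutant libraries lay on opposite sides of both controls in 12 of the 25, against 25.9% of all tested genes. Ifit3b and Ifit1bl1, relatives of Ifit3 and Ifit1, had 27 and 49 and 22 and 72 counts in the controls and 0 in both mutant libraries. Against a floor of 3 counts per mutant library, which covers counting error only, Ifit1bl1 was at least 17.7-fold lower in the mutant (edgeR, adjusted p = 0.680). This bound was 7.30-fold without control 2 and 28.0-fold without control 1. Adar, an RNA editing enzyme gene, was at 43.5 and 48.7 against 52.2 and 71.2 CPM (log2 change 0.42, adjusted p = 0.898), and Tor3a, the most abundant, was at 45.0 to 61.4 CPM.

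Several induced genes were not detected in one mutant library only. Besides Ifit1, mutant 1 had 0 counts for Ifit2, Mx2 and Rsad2, which had 58, 69 and 121 counts in mutant 2 and 43 and 51, 103 and 31, and 190 and 95 counts in the controls. Conversely mutant 2 had 0 counts for Oasl1 and Rtp4, with 174 and 37 counts in mutant 1. These 5 genes were chosen after their values were seen. Among the 38 genes of the pathway, members included, with 10 to 200 counts in both controls, 10 had 0 counts in mutant 1 and 8 in mutant 2. The same held for 18.8% and 16.3% of all 4057 genes in that range. Genes at 0 in both mutant libraries were 3 of the 38 and 7.27% of the 4057.

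Of the 28 other tested interferon-stimulated genes 13 had a log2 change above 0 and 15 below. Both mutants lay below both controls in 9 of the 28, beside 20.4% of all tested genes, and above both in 6, beside 16.1%. Sp100, a nuclear body gene, had 160 and 25 counts in the controls and 0 in mutant 1 and mutant 2. Against the same floor, for counting error only, Sp100 was at least 31.4-fold lower. This bound was 9.74-fold without control 1 and 53.1-fold without control 2. DESeq2 called Sp100 (adjusted p = 0.0191), the only pathway gene it called, and edgeR did not (adjusted p = 0.680). Of the 16517 tested genes 304 were at 0 in the mutants, where the filter requires counts in both controls, and in edgeR each of the 304 had an unadjusted p under 0.05. Ifi35 was at 21.3 and 18.7 against 14.2 and 13.3 CPM (log2 change -0.54), and Samd9l, a growth-restraining gene, at 17.8 and 17.4 against 5.44 and 12.2 CPM (-0.99). Lgals3bp was the most abundant, at 341 to 455 CPM.

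The 9 tested interferon-inducible GTPases had 7 log2 changes above 0 and 2 below. The mutants lay on opposite sides of both controls in 5 of the 9, beside 25.9% of all tested genes. In all 5 (Gbp2, Gbp3, Gbp5, Gbp6 and Irgm2) mutant 1 was above and mutant 2 below. That order is the reverse of the one in Irf9, Irf7, Ifit1 and Usp18. Each of the 5 is among the 7 above 0, so that count rests largely on mutant 1. Gbp2, Gbp3, Gbp5 and Gbp6 had 74, 195, 116 and 96 counts in mutant 1 and 0 in mutant 2. These 5 genes were named after their values were seen. Irgm1, a regulator of autophagy and of the other GTPases, was at 15.5 and 15.3 CPM in control and 9.40 and 8.42 CPM in mutant (log2 change -0.79, edgeR, adjusted p = 0.756). The 3 genes that activate and attach Isg15 were all on the lower side and none passed, with unadjusted p above 0.05 in edgeR. Ube2l6, the conjugating enzyme, was at 7.77 and 6.11 against 3.32 and 4.20 CPM (-0.88, adjusted p = 0.903). Herc6, the ligase in mice, was at 6.66 and 7.63 against 5.52 and 5.58 CPM (-0.36), and Uba7, the activating enzyme, was at 5.91 and 5.40 against 8.02 and 1.52 CPM (-0.25).

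Of the 8 tested negative regulators other than Usp18, 6 had a log2 change above 0, and Socs3, a feedback inhibitor of Jak kinases, was at 125 and 36.9 CPM in control and 117 and 196 CPM in mutant (log2 change 0.95, edgeR, adjusted p = 0.953). Of the 11 genes of class I antigen presentation 7 were on the higher side, and 0 passed. H2-K1 was at 307 and 333 against 374 and 367 CPM (0.21), and B2m at 20.9 and 11.1 against 24.4 and 22.5 CPM (0.55). Leukocytes express these genes too, and the summed leukocyte markers were also higher in both mutant libraries, with a median log2 change of 1.13. Their part in these values was not tested.

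Over the 114 tested pathway genes outside the members 61 had a log2 change above 0 and 53 below, with a median of 0.037, and 0 passed in edgeR and 1 in DESeq2. Both mutants lay below both controls in 24 of the 114, beside 20.4% of all tested genes, and above both in 24, beside 16.1%. At an unadjusted p under 0.05 in edgeR there were 6, all lower (Tbk1, Tmem173, Ifit3b, Ifit1bl1, Sp100 and Irgm1). Over all tested genes 4.21% reached it on the lower side and 1.99% on the higher. Of the 6, Ifit3b, Ifit1bl1 and Sp100 were at 0 in both mutant libraries and passed the filter through the controls alone. All 304 tested genes of that kind had such a p, so for these 3 it adds nothing to the zeros. Tested genes at 0 in both controls numbered 21, although the filter treats the genotypes alike. The cause of this imbalance was not tested. The pathway genes nearest to the mean profile of the members over the 4 libraries, by Euclidean distance on centred log2(CPM + 1), were Jak1 (0.127), Stat3 (0.174) and Ptpn6 (0.189). That profile is nearly flat, since members with opposite patterns cancel, and 529 of all 16517 tested genes were at least as near as the last of the 3.

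**Figure D4:**
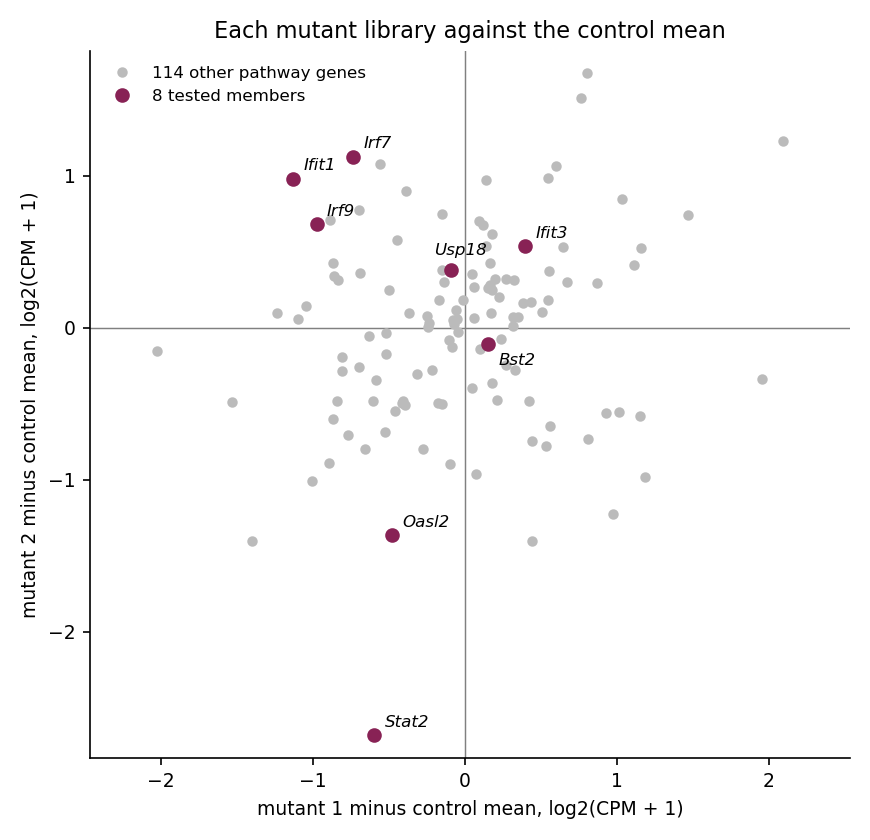
Each point is a gene, with its difference from the control mean in mutant 1 on the horizontal and in mutant 2 on the vertical axis, both on the log2(CPM + 1) scale; dark points are the 8 tested members and grey points the 114 other tested pathway genes. Stat2 and Oasl2 lie at the bottom left, Irf7, Irf9 and Ifit1 at the top left, and the grey points spread over all 4 quadrants.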

How the data were processed

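Per the submitters' processing notes, the tools were STAR 2.5.3a, RSEM 1.3.0, bcl2fastq 2.20.0.422 and edgeR 3.16.5, on build GRCm38. What edgeR did and which annotation served is not given in the sources used here. Per the labels, cDNA was made with the SMART-Seq v4 kit and tagmented with Nextera XT, which does not mark strand. The deposited table holds expected counts per gene in whole numbers. It is named as normalized, yet its totals differ, so an earlier rescaling by the authors is possible and counting intervals are approximate. It holds 0 columns of other samples.

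The 16517 genes reaching 10 counts in at least 2 libraries were scaled by TMM and tested two-sided with glmQLFit and glmQLFTest of edgeR 4.0.16 (R 4.3.3), adjusted by Benjamini-Hochberg over all of them at 0.05. Standard errors were taken from the log2 change and its F statistic, and 95% intervals from these. CPM use TMM-scaled totals. Alternatives used DESeq2 1.42.0, limma 3.58.1, other scalings and filters, and each library left out. Positions and exon lengths came from GENCODE M21 (GRCm38), which 51633 identifiers matched, and similar transcripts from BLAST 2.17.0 (at least 90% identity over at least 50%). Named genes are the members, Robo1, Robo2, up to 3 genes of smallest p and the most abundant of each pathway list, the most abundant marker of each cell type, and the 3 nearest profiles. A few were left unnamed for length, and others are marked where named. Values of some genes so chosen are not reported here. The members and lists were chosen with earlier results of these data known.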

Additional observations from a re-analysis of the deposited data

How the results depend on the processing

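Under all 11 other settings (3 scalings, 2 filters, 2 tools and 4 fits without 1 library) 0 members passed the adjusted threshold. Across all genes DESeq2 called 151, against 0 with edgeR and with limma-trend. Leaving out each library in turn gave 0 to 1 called genes. The 1 gene, Gm8797, was called without Robo mutant 2 (edgeR, adjusted p = 0.0393), with 4556, 3783, 270 and 4690 counts in control 1, control 2, mutant 1 and mutant 2, and it was chosen after its values were seen. Without 1 library the members below both controls ran from 2 to 6 and those above from 1 to 5, and the median log2 change from -0.62 to 0.57. The 6 below came without Robo mutant 2, where 40.2% of all tested genes lay below both controls, and the 5 above without Robo mutant 1, where 37.0% lay above. The remaining mutant or control library is then assumed to vary like the other group. Single members reversed in these settings, with ranges of -1.14 to 0.72 for Irf9, -0.24 to 0.37 for Bst2, -1.09 to 1.35 for Irf7, -0.10 to 0.41 for Usp18 and -8.83 to 1.43 for Ifit1, whose lowest value rests on a count of 0. Scaling by totals only gave Irf9 -0.016 and Bst2 -0.012, and limma-trend on log2(CPM + 1) gave Ifit1 -0.075 and Irf9 -0.15. Summing Ifit3 with Ifit3b, chosen after seeing the data, gave -0.32. Stat2, Oasl2 and, unsummed, Ifit3 kept their direction in all 11. The cause of these differences was not tested. With 2 libraries a genotype and intervals as wide as those given, a change in a member was not detectable unless it was much larger than the spread between libraries. No paired analysis was possible because the labels carry no replicate numbers, and the 1 and 2 used here only name the libraries of a genotype.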
